A study of Mus musculus with 4 samples.

Results

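The genes described here are Cth and 9 further genes of transsulfuration and glutathione metabolism (Cbs, Mat2a, Ahcy, Gclc, Gclm, Gss, Gsr, Slc7a11 and Nqo1), measured in mouse myeloid-derived suppressor cells (MDSCs). Every probe set (a group of array probes for 1 transcript region) was taken that the platform annotation assigns to 1 gene symbol only, that of a gene on this list. This gave 15 probe sets for 9 of the 10 genes, out of 34958 probe sets and 18194 genes in all. Mat2a had no probe set under its name in the annotation used here and is not analysed. The genes were chosen by their place in the pathway with the knockdown values of these arrays in view, Cth being among the most changed genes, so the values below are a description and none was put to a test.

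The study asked how an RNA that the labels call lncMDSC, and the paper lnc-C/EBPβ, affects MDSCs, and put 4 cultures on 4 Affymetrix GeneChip Mouse Genome 430 2.0 arrays. Every culture was C57BL/6 mouse bone marrow infected with a lentivirus and kept for 4 days with GM-CSF and IL6, so all 4 arrays share infection, strain and cytokines. kdLNC received a lentivirus with an shRNA against the RNA and was set against kdNC, with a control shRNA, and oeLNC received a lentivirus carrying the RNA and was set against oeNC, with the overexpression control lentivirus. There was 1 array per group, the number of animals per culture is not stated in the sources used here, and the cells were mixed cultures, in which fewer cells of a type and less RNA per cell cannot be told apart. No probe set was found under a name of the targeted RNA, so its knockdown and overexpression rest on the labels.

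Transsulfuration carries the sulfur of methionine to cysteine. Methionine is activated to S-adenosylmethionine, the methyl donor of the cell, and after methyl transfer Ahcy frees homocysteine, which Cbs joins to serine as cystathionine and Cth (cystathionine gamma-lyase) splits to cysteine. Cells also import cystine, the oxidised form of cysteine, through the exchanger of which Slc7a11 is the transport subunit. Cysteine then limits the production of glutathione, the main thiol antioxidant, which the ligase made of Gclc and Gclm and the synthase Gss build and which Gsr returns to its reduced form. Several of these genes are known targets of NRF2, a transcription factor of oxidative stress of which Nqo1 is a classic target, and of ATF4, the factor of the amino acid response, for which Cth, Slc7a11 and Chac1 are known targets. MDSCs are of interest here because suppression of T cells by these cells has been linked to their handling of cystine and cysteine.

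The promoters of Slc7a11 and Gclm are shown because they are the 2 of the 7 members found in the RefSeq promoter table (Cbs, Mat2a, Ahcy, Gclm, Gss, Slc7a11 and Nqo1) in which a searched stress response motif was found. Both are given 5′ to 3′ on the strand of the gene, in build GRCm38.p6. For Slc7a11 the line holds the 250 bases before the start site of the table, chr3:50443614-50443863 on the minus strand, which lies inside the annotated span of the gene (50364936 to 50499087), and its capitals mark matches to TGATGNAA, the core of the C/EBP-ATF response element. For Gclm the line holds the 180 bases of the table's window before the annotated start of the gene, chr3:122245307-122245486 on the plus strand, and its capitals mark a match to TGACNNNGC, the core of the antioxidant response element bound by NRF2.
Slc7a11: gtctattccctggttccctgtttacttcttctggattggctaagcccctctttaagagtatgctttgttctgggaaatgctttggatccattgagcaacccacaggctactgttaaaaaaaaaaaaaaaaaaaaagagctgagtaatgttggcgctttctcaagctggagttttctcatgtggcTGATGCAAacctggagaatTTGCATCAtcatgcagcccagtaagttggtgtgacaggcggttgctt
Gclm: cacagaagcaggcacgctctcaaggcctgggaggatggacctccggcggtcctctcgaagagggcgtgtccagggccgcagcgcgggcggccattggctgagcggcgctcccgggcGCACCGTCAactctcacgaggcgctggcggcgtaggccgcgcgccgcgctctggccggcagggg
Windows of 300 bases, from 250 bases before to 50 after the start site of the table, were searched on both strands. TGATGNAA was found at bases 185 to 192 of the Slc7a11 window and, on the opposite strand, at bases 204 to 211, counted from its first base. It was present in 3.97% of 32851 promoters. TGACNNNGC was at bases 117 to 125 of the Gclm window, on the opposite strand, and in 12.4% of promoters. TTGCNNAA, a motif of the C/EBP family, occurred at bases 91 to 98 and 245 to 252 of the Slc7a11 window, overlapping no other match, and in 10.8% of promoters. These matches are letters in a window, and binding was not measured.

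Differences were formed from the log2 of the deposited intensities as kdLNC minus kdNC, oeLNC minus oeNC and, between the controls, oeNC minus kdNC. With no replicates there is no replicate error and no p-value. As a yardstick serves the SD of oeNC minus kdNC among the 500 probe sets nearest in level (called the control SD here), which ran from 0.42 to 0.61 for the members and in which vector, culture and array cannot be told apart. All 15 member probe sets were above the 50th percentile of mean level over the 4 arrays (4.20 on the log2 scale), among 19207 probe sets with 1 symbol. For Cth this rested on the kdLNC array, without which its mean was 3.76. Over all 19207 probe sets the SD was 0.29 for kdLNC minus kdNC, 0.36 for oeLNC minus oeNC and 0.57 for oeNC minus kdNC. The control SD is thus a wide yardstick, and a difference within it can still exceed the spread of its own pair.

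The most changed member was Cth, at its single probe set 1426243_at. Its intensity was 90.5 in kdLNC against 14.9 in kdNC, and 10.6 in oeLNC against 15.8 in oeNC. The kdLNC array stood apart, with Cth at percentile 78.6 of its probe sets, while Cth was below the middle on oeLNC (33.8), oeNC (46.4) and kdNC (44.7). Cth was 6.09-fold higher in kdLNC, a log2 difference of 2.61, and it ranked as number 2 of 19207 probe sets, a rank that is part of why the gene was chosen. In oeLNC the log2 difference was -0.57, or 1.36 times the control SD, number 1380 from the lowest of 19207 probe sets. In that pair 6.96% of all probe sets were at least 1.5-fold lower. Between the controls the Cth difference was 0.08. The order of the arrays was therefore kdLNC, oeNC, kdNC and oeLNC, with the 2 controls closer together than the control SD of 0.42. With 16 added to every intensity, which damps dim signals, the knockdown difference was 1.79 and the overexpression difference -0.26. Cth lies at chr3:157894248-157925081 in the RefSeq annotation of GRCm38.p6.

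**Figure D1:**
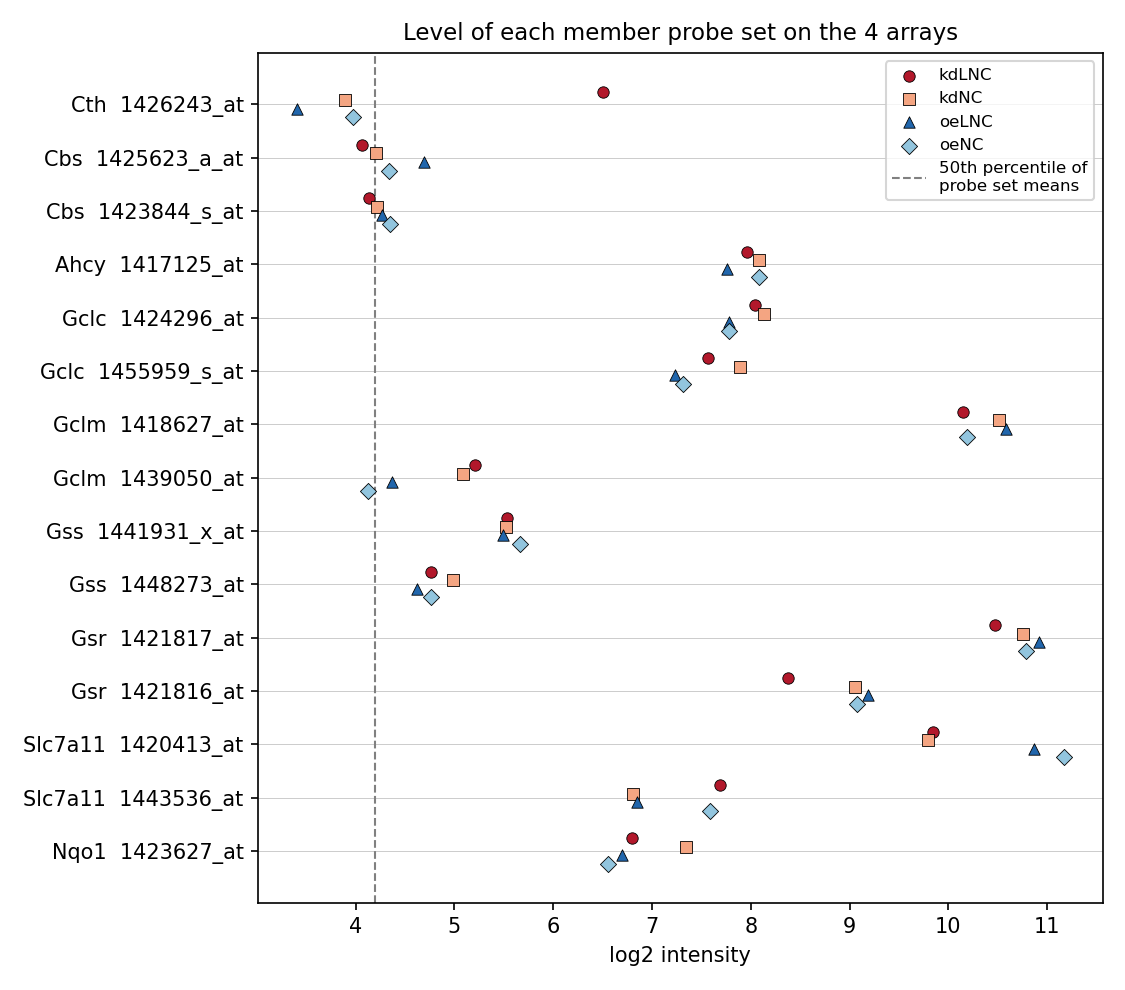
Log2 intensity of each of the 15 member probe sets (rows) on the 4 arrays (1 point per array and colour), with the 50th percentile of probe set means as a dashed line. Cth stands at 6.50 on the kdLNC array and between 3.40 and 3.98 on the other 3, while no other member has an array this far from the rest.

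Among 11344 genes above the filter, those nearest to Cth over the 4 arrays, by the Euclidean distance of log2 values centred on each gene's mean, were Orm1 (distance 0.73), Stfa3 (0.94), AI662270 (1.06), Tbx21 (1.06) and Slc7a3 (1.15). Orm1 encodes an acute-phase plasma protein, Stfa3 a stefin that inhibits cysteine proteases, Tbx21 the transcription factor T-bet, and Slc7a3 a transporter of cationic amino acids. Orm1 had 584 in kdLNC against 152 in kdNC, and 138 in oeLNC against 155 in oeNC. Slc7a3 had 83.0 in kdLNC against 29.5 in kdNC, and 28.8 in oeLNC against 30.4 in oeNC. The 5 genes had knockdown differences of 1.25 to 1.94 and overexpression differences of -0.53 to -0.08. Such likeness over 4 arrays rests mostly on the single kdLNC array.

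**Figure D2:**
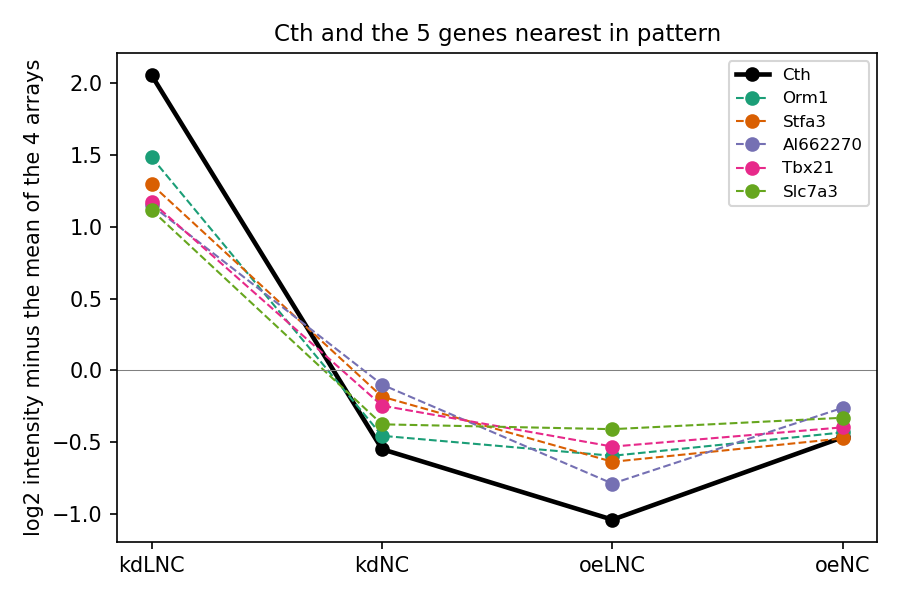
Log2 intensity minus the gene's mean over the 4 arrays for Cth (solid black) and the 5 genes nearest in pattern (dashed), by array. All 6 lines peak at kdLNC, where Cth reaches 2.06 and the other genes lie between 1.12 and 1.48.

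Upstream of Cth, the probe sets of the methionine cycle and of the first transsulfuration step showed no such difference. Cbs, the enzyme that forms cystathionine, was dim at both of its probe sets. At 1425623_a_at it had 16.8 in kdLNC against 18.5 in kdNC, and 25.9 in oeLNC against 20.2 in oeNC. At 1423844_s_at it had 17.6 in kdLNC against 18.6 in kdNC, and 19.3 in oeLNC against 20.4 in oeNC. The Cbs knockdown differences were -0.14 and -0.08, with overexpression differences of 0.36 and -0.08, all within the control SD (0.47 and 0.46). Ahcy, the hydrolase that releases homocysteine, had 249.98 in kdLNC against 271 in kdNC, and 217 in oeLNC against 271 in oeNC. The oeLNC array was the lowest for Ahcy, with a log2 difference of -0.32 against a control SD of 0.59, and kdLNC differed from kdNC by -0.12.

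Slc7a11, which brings cystine into the cell, gave different pictures at its 2 probe sets. At the brighter, 1420413_at, it had 918 in kdLNC against 885 in kdNC, and 1863 in oeLNC against 2306 in oeNC. Here the 2 overexpression arrays stood above the 2 knockdown arrays, and the differences were 0.05 in the knockdown pair, -0.31 in the overexpression pair and 1.38 between the controls. At the dimmer, 1443536_at, it had 207 in kdLNC against 112 in kdNC, and 115 in oeLNC against 192 in oeNC. There kdLNC and oeNC were the high arrays and oeLNC and kdNC the low ones, with a knockdown difference of 0.89 (1.85-fold), an overexpression difference of -0.74 (1.67-fold lower) and a control difference of 0.78, against a control SD of 0.61. With the mean of both controls as the control, the differences at 1443536_at were 0.50 and -0.35, and those at 1420413_at were -0.64 and 0.38. The directions of the brighter probe set therefore turned with the choice of control and those of the dimmer one did not. At 1443536_at, as at the Cth probe set, intensity was highest in kdLNC and lower in oeLNC than in oeNC, but its controls differed and those of Cth did not by more than the control SD.

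At every probe set the 3 genes of glutathione synthesis differed by less than 1.5-fold within each pair. Between the controls the Gclm probe set 1439050_at differed by more (-0.96). Gclc, the catalytic subunit of glutamate-cysteine ligase, had 264 in kdLNC against 281 in kdNC, and 220.1 in oeLNC against 219 in oeNC, at 1424296_at. Its other probe set, 1455959_s_at, had 190.1 in kdLNC against 237 in kdNC, and 150.2 in oeLNC against 159 in oeNC. Both probe sets of Gclc were lower on the overexpression arrays than on the knockdown arrays. The Gclc differences were -0.09 and -0.32 on knockdown, and 0.0077 and -0.08 on overexpression, where the sign of the first turned after median centring (-0.06) and that of the second after quantile normalization (0.01).

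Gclm, the modifier subunit, had 1135 in kdLNC against 1456 in kdNC, and 1535 in oeLNC against 1171 in oeNC, at its bright probe set 1418627_at. The log2 differences of -0.36 on knockdown and 0.39 on overexpression were opposite in sign to those of Cth. They lay within the control SD of 0.56 but beyond the SD of all probe sets in their own pairs (0.29 and 0.36). The dim Gclm probe set 1439050_at had 37.0 in kdLNC against 33.9 in kdNC, and 20.6 in oeLNC against 17.4 in oeNC. There the 2 knockdown arrays were above the 2 overexpression arrays, with a control difference of -0.96, and both pairs had a positive difference (0.13 and 0.25). With the mean of both controls these became 0.61 on knockdown, past 1.5-fold, and -0.23 on overexpression, so the sign of the second turned. Gss, which adds glycine to complete glutathione, had 46.2 in kdLNC against 45.9 in kdNC, and 45.1 in oeLNC against 50.6 in oeNC, at 1441931_x_at. At 1448273_at Gss had 27.2 in kdLNC against 31.8 in kdNC, and 24.5 in oeLNC against 27.2 in oeNC. No array stood apart at either probe set of Gss, and its differences within the pairs ran from -0.22 to 0.0080. Between the controls Gss differed by 0.14 at 1441931_x_at and by -0.22 at 1448273_at.

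Gsr, the reductase that regenerates glutathione, was lowest in kdLNC at both probe sets. At 1421816_at it had 332 in kdLNC against 532 in kdNC, and 581 in oeLNC against 540.4 in oeNC. At the brighter 1421817_at it had 1425 in kdLNC against 1725 in kdNC, and 1934 in oeLNC against 1761 in oeNC. The kdLNC array was thus the low one and oeLNC the highest, but kdLNC stood apart by more than the control SD only at 1421816_at. The knockdown differences were -0.68 (1.60-fold lower) and -0.28, against control SDs of 0.61 and 0.50, the overexpression differences were 0.10 and 0.14, and the controls differed by 0.02 and 0.03. The overexpression differences of Gsr stayed positive under the 5 other settings tried for each.

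Nqo1, a quinone reductase, had 111 in kdLNC against 162 in kdNC, and 104 in oeLNC against 93.8 in oeNC. Only kdNC was high, and the other 3 arrays lay between 93.8 and 111. The Nqo1 difference was -0.54 on knockdown (1.46-fold lower) and 0.15 on overexpression, while the controls differed by more, -0.79. Against the mean of both controls the knockdown difference was -0.15 and the overexpression difference -0.25.

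Over all members, 2 of the 15 probe sets were at least 1.5-fold higher in kdLNC than in kdNC, those of Cth and Slc7a11 (1443536_at), where 3.16% of all 19207 probe sets above the filter were, and 1, that of Gsr (1421816_at), was at least 1.5-fold lower, where 1.67% were. In oeLNC against oeNC none was higher by as much (3.14% of all probe sets) and 1 was lower, Slc7a11 (1443536_at), where 6.96% were. Against the mean of both controls 2 were again higher in kdLNC, but these were Cth and the dim Gclm probe set. By that comparison 1184 of all 19207 probe sets were higher in kdLNC, where 607 were against kdNC alone. At 2-fold, Cth on knockdown was the only member probe set called in either pair. Of all probe sets, 0.687% were 2-fold higher and 0.271% lower in kdLNC, and 0.229% were higher and 1.18% lower in oeLNC. Nothing is read from these counts, since the members were chosen with the knockdown values known. The median difference of the 15 probe sets was -0.12 on knockdown and -0.08 on overexpression, against -0.03 and -0.04 over all 19207.

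**Figure D3:**
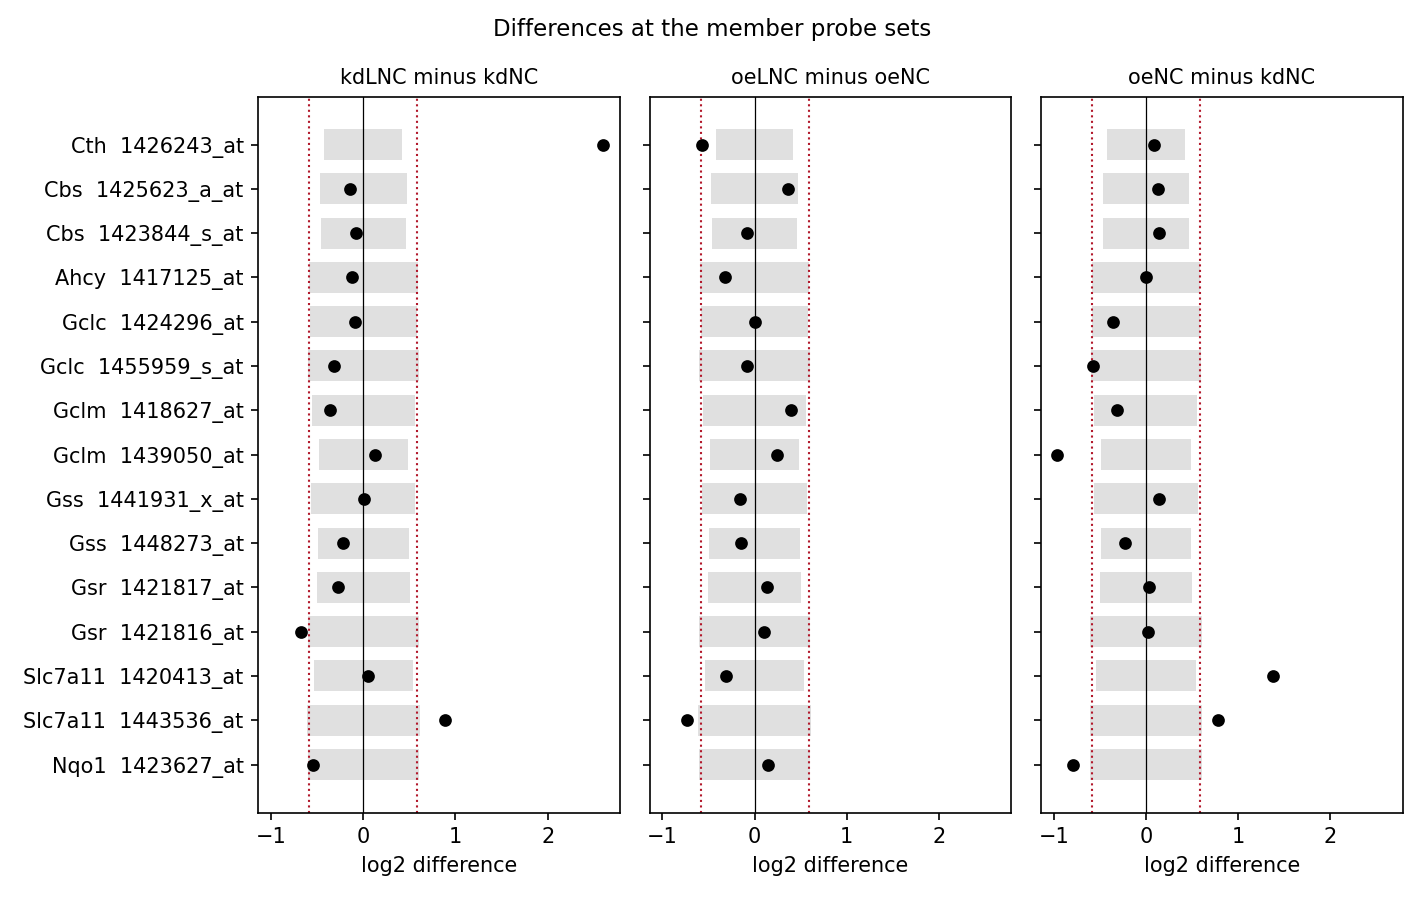
Log2 difference at each member probe set (points) for knockdown, overexpression and oeNC against kdNC, 1 panel each. Grey bars span 1 control SD to either side of 0, and dotted lines mark 1.5-fold. Cth, at 2.61 for knockdown, is the farthest from 0 of all points, and the next is the brighter Slc7a11 probe set between the controls, at 1.38.

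Between the controls, oeNC against kdNC, 2 of the 15 probe sets were at least 1.5-fold higher, both of Slc7a11 (10.4% of all probe sets), and 2 were lower, those of Gclm (1439050_at) and Nqo1 (13.7%). At 2-fold only the brighter Slc7a11 probe set was called (2.60-fold higher in oeNC), where 3.63% of all probe sets were higher and 4.8% lower. Slc3a2, which encodes the heavy chain that carries the Slc7a11 protein to the membrane and is named after its values were seen, was also higher in oeNC than in kdNC by 1.05, with differences of -0.09 on knockdown and -0.14 on overexpression. Markers of other cells also differed between the controls. Of all 11345 genes above the filter, 12.2% were at least 1.5-fold lower in oeNC than in kdNC, with a median of -0.04. In oeNC 4 of 5 mast cell and basophil genes (median -1.74), 4 of 5 eosinophil genes (-1.71) and 4 of 6 B cell genes (-1.18) were at least 1.5-fold lower, with summed intensities of 887 in oeNC against 2093 in kdNC, 1294 in oeNC against 2699 in kdNC, and 1758 in oeNC against 3552 in kdNC. Their part in the control differences of the members was not tested. The control difference was larger in size than the difference of either pair for the brighter Slc7a11 probe set, Nqo1, the dim Gclm probe set, both probe sets of Gclc and the Cbs probe set 1423844_s_at. It was smaller than both for Cth, Ahcy, both probe sets of Gsr, the bright Gclm probe set and the Cbs probe set 1425623_a_at.

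Around these members, 5 lists of related genes were drawn up, also with earlier values known, and a gene was represented by its brightest probe set. At 1.5-fold, 2.25% of the 11345 genes above the filter were higher and 1.84% lower in kdLNC, while 3.23% were higher and 5.26% lower in oeLNC. Between the controls 9.09% were higher and 12.2% lower in oeNC. Other genes of the methionine cycle and sulfur metabolism, 16 above the filter of 22 measured, had none called on knockdown and 1 lower on overexpression, with medians of 0.02 and -0.15. The one called was Enoph1, of methionine salvage, with 63.8 in oeLNC against 117 in oeNC (-0.88), and 0.46 on knockdown. Its other probe set, below the filter, had -0.44 on overexpression and 0.0051 on knockdown. Without probe sets with _s_at or _x_at in their ID, 0 of the list were lower on overexpression. The largest other knockdown differences were those of Ethe1 (-0.52) and Sqor (-0.38), both enzymes of mitochondrial sulfide oxidation, and Ahcyl2 (0.30), an Ahcy-like protein. On overexpression Mri1, also of methionine salvage, had -0.47, Srm (spermidine synthase) -0.35, and Ahcyl1 0.38, though the other 2 probe sets of Ahcyl1 had the opposite sign. The other Mri1 probe set, below the filter, had 0.19 on overexpression. The controls differed by more for Srm (-0.70) and Ahcyl1 (-0.43).

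Of the list for glutathione use, with 24 genes above the filter of 32 measured, 1 was lower and none higher on knockdown, and 1 was lower and 1 higher on overexpression (medians -0.08 and 0.08). With the mean of both controls 3 were higher and 0 lower on knockdown, and 0 were higher on overexpression. Mgst2, a microsomal glutathione transferase, had 343 in kdLNC against 549 in kdNC (-0.68). Chac1, which degrades glutathione, had 146 in oeLNC against 80.0 in oeNC (0.87), and Hagh, of the glyoxalase pathway, had 157 in oeLNC against 240.5 in oeNC (-0.61). Chac1 differed by more between the controls, at -0.98. The remaining named genes of this list, Abcc4 (0.45 on knockdown), Gstt1 (-0.45 on knockdown), Gsta4 (-0.38 and 0.53) and Chac2 (-0.48 on overexpression), lay below 1.5-fold. For Abcc4 the controls differed by more (-0.60).

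The NRF2 list, of the factor, its partners and its antioxidant targets (25 genes above the filter of 26 measured), had 1 gene higher and 2 lower on knockdown, and none called on overexpression, with medians of -0.13 and 0.03. Against both controls together 0 were higher and 0 lower on knockdown, so the calls below were lost. Cbr3, a carbonyl reductase, had 45.3 in kdLNC against 88.2 in kdNC (-0.96), and Ephx1, an epoxide hydrolase, had 41.3 in kdLNC against 65.7 in kdNC (-0.67). Cat (catalase) had 261 in kdLNC against 149 in kdNC (0.81), with -0.03 at its second probe set, and 210 in oeLNC against 307 in oeNC (-0.55). Nfe2l2, which encodes NRF2 itself, had 965 in kdLNC against 989 in kdNC, and 1461 in oeLNC against 2041 in oeNC, which gave -0.04 on knockdown and, on overexpression, -0.48, where its second probe set had 0.29. Idh1, a source of NADPH, had -0.41 on knockdown (0.03 at its second probe set), and Mafg, a small MAF partner of NRF2, 0.40 on overexpression. Cbr3, Cat and Nfe2l2 differed by more between the controls, by -1.06, 1.05 and 1.04.

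Among 14 thioredoxin system genes, all of those measured, 1 was lower on knockdown and none was called on overexpression (medians -0.07 and -0.10). Txnip, the inhibitor of thioredoxin, had 1002 in kdLNC against 1828 in kdNC (-0.87, and -1.22 at its other probe set), and 2121 in oeLNC against 2375 in oeNC (-0.16). Msra and Msrb2, which reduce oxidised methionine in proteins, both had -0.50 on knockdown, while for Msrb2 the controls differed by more (-0.74). Txnl1 had 0.38 at its brightest probe set, but its 6 probe sets ran from -0.55 to 0.68, with 2 of the opposite sign. On overexpression the largest differences, each at the brightest probe set, were 0.34 for Srxn1, -0.30 for Prdx2, 0.24 for Txn1 and -0.20 for Prdx4. The second probe set had 0.39 for Prdx2 and 0.72, past 1.5-fold, for Txn1. The 4 probe sets of Prdx4, 2 of them above the filter, ran from -1.52 to -0.14.

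The list of ATF4, its targets and amino acid transporters (31 genes above the filter of 35 measured) had a median of 0.19 on knockdown and -0.14 on overexpression, where all 11345 genes had -0.05 and -0.02. With the mean of both controls the knockdown median was 0.084. None of the list was 1.5-fold higher in kdLNC and 2 were lower, and in oeLNC 1 was higher and 2 were lower. With the mean of both controls 3 were higher in kdLNC and 0 in oeLNC, and when all probe sets of a gene were averaged 1 was higher in kdLNC. The share over all genes was not counted under either setting. Asns (asparagine synthetase) had 606 in kdLNC against 428 in kdNC, and 399.9 in oeLNC against 424 in oeNC, so that kdLNC was the high array, as for Cth. Its difference was 0.50 on knockdown, or 0.93 at its second probe set, and that of Gars, a tRNA synthetase, was 0.51. Psph, of serine synthesis, had 0.44 on knockdown and -0.52 on overexpression, and Trib3, an ATF4 target, 0.43 and -0.76. In the other direction, Ddit3 (CHOP) had 673 in kdLNC against 1025 in kdNC (-0.61), and Ddit4 150.4 in kdLNC against 233 in kdNC (-0.63) and 335 in oeLNC against 648 in oeNC (-0.95). The controls differed by more for Trib3 (0.90) and Ddit4 (1.47). Atf4 itself, named after its values were seen, had -0.21 on knockdown and 0.31 on overexpression.

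**Figure D4:**
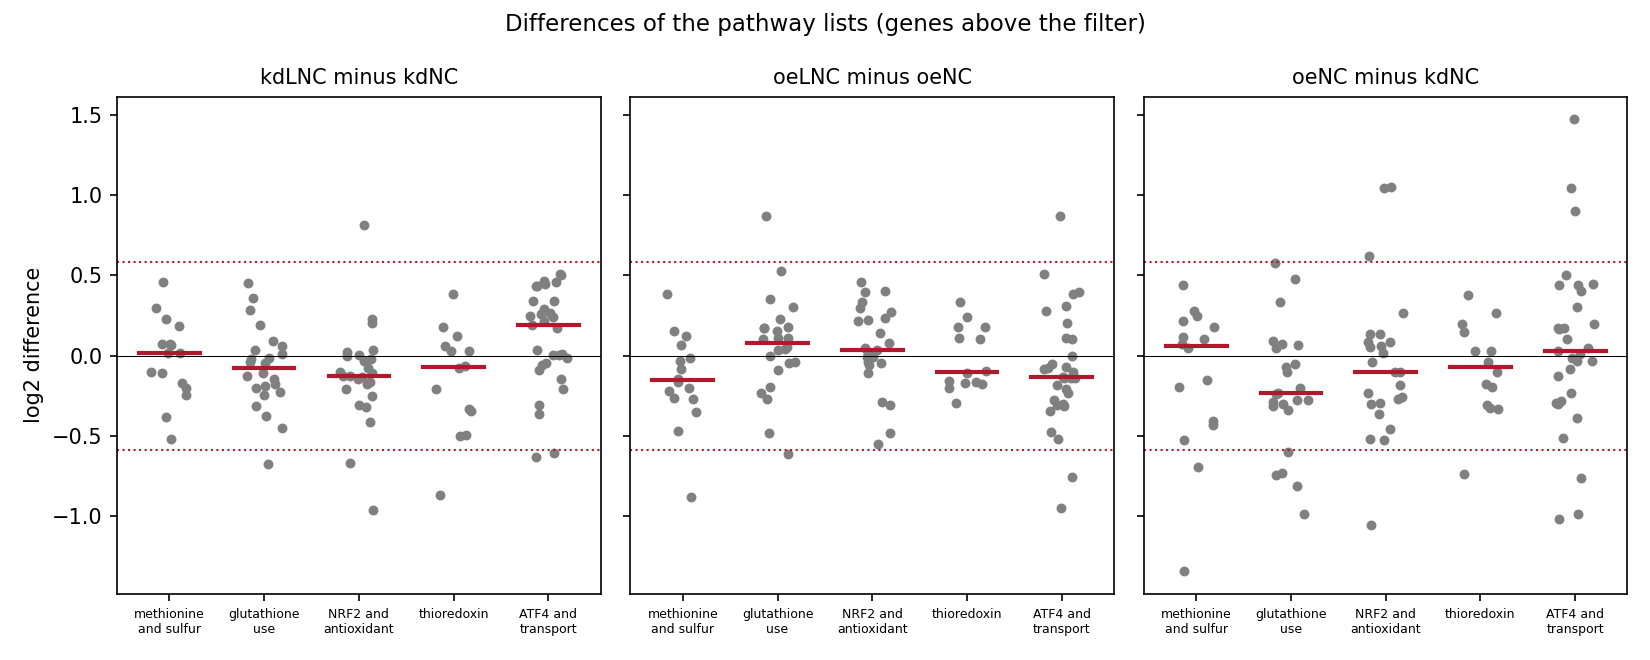
Log2 difference of each gene above the filter in the 5 lists (grey points, spread sideways for visibility), with the list median in red and dotted lines at 1.5-fold in 3 panels, for knockdown, overexpression and oeNC against kdNC. The ATF4 and transport list has its median at 0.19 in the left panel, and the other list medians there lie between -0.13 and 0.02.

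The 4 arrays had median log2 intensities between 4.17 and 4.24. All 11 measured genes of neutrophils, the main cells of the PMN-MDSC subset, were above the filter. They ran from S100a8, with 10958 in kdLNC and 10239.8 in kdNC, down to Cxcr2, with 70.3 in kdLNC and 151 in kdNC. Genes of monocytes and macrophages were also present (Csf1r had 2758 in kdLNC and 3133 in kdNC). Ly6g, Ly6c1 and Ly6c2, which define the subsets, were sought but had no probe set of their own in the annotation used here. Of all 11345 genes above the filter, 1.84% were at least 1.5-fold lower and 2.25% higher in kdLNC than in kdNC, with a median of -0.05. In kdLNC, 6 of 11 measured neutrophil genes fell short of kdNC by 1.5-fold or more (median -0.76), among them Ltf (-2.70) and Camp (-1.50). Their summed intensity was 39968 in kdLNC against 47255 in kdNC, and 48415 in oeLNC against 51857 in oeNC, over all 11 genes. The largest parts of the kdLNC sum were S100a8, S100a9 and Lcn2, which were not lower in kdLNC (0.10, 0.05 and 0.12). Of 5 eosinophil genes above the filter, 4 were lower in kdLNC, with a summed intensity over the 6 measured of 1422 in kdLNC against 2699 in kdNC, and 1211 in oeLNC against 1294 in oeNC. The 9 monocyte and macrophage genes above the filter had 1 higher and none lower in kdLNC (median -0.08, summed intensity over the 10 measured 7456 in kdLNC against 8054 in kdNC). No marker was at 0, a value these intensities do not take. The beta-actin control probe sets, which compare the 3′ with the 5′ end of the transcript, gave a log2 ratio of 1.96 in kdLNC against 1.61 in kdNC, and 1.97 in oeLNC against 1.96 in oeNC. For Gapdh this ratio was 0.69 in kdLNC against 0.51 in kdNC, and 0.65 in oeLNC against 0.53 in oeNC. The part of cell makeup and of RNA quality in the differences of Cth, Gsr and Nqo1 on knockdown was not tested.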

How the data were processed

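The authors deposited 1 table of intensity values for 45101 probe sets on 4 Affymetrix Mouse Genome 430 2.0 arrays, already normalized and summarised. Per the labels' processing notes RMA was used, with no version or settings given, and since the values are linear, from 1.33 to 12309, their log2 was taken. No background estimate or depth applies to these intensities, and the number of arrays (1 per group) limits the precision of every value. Probe sets were used where the platform annotation named 1 gene (34958), and those with several symbols (932) or without one (9211) were left out. Of 136 list genes, 126 had a probe set of their own.

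Log2 differences were computed with Python 3.11.15, numpy 2.4.6, pandas 2.3.3 and statsmodels 0.14.6, and tested on simulated data. No test was made, since limma, which the study's methods name, needs replicates to estimate the spread and each group has 1 array. Probe sets with a mean over the 4 arrays above the 50th percentile entered counts, and a difference of at least 1.5-fold was called. All member probe sets are named, with up to 4 genes per list and pair that had the largest differences above the filter, and the 5 genes nearest to Cth. The members and the lists were chosen with earlier results of these data known. The alternatives were median centring, quantile normalization, loess within each pair (span 0.4), the mean of both controls as the control, 16 added before log2, other filters (none, or the 70th percentile), folds of 2 and 3, averaging every probe set of a gene, and exclusion of probe sets with _s_at or _x_at in their ID.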

Additional observations from a re-analysis of the deposited data

How the results depend on the processing

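No paired analysis was possible because the 4 groups hold a single array each, and for the same reason no array could be left out. An alternative was taken to leave a difference the same where it moved it by less than the control SD, a list median where it moved it by less than 0.1, and a count where it stayed within 1.5 times. Of 210 member differences under the alternatives, 207 were the same and 3 moved, and no called difference was reversed. A difference counted as the same could still cross 1.5-fold or change sign. With the mean of both controls the dim Gclm probe set did so, from 0.13 to 0.61 on knockdown and from 0.25 to -0.23 on overexpression. All 54 gene values under other choices of probe set were the same by this limit, but many of them could not move. Cth, Ahcy and Nqo1 have 1 probe set, and only for Gss is the brightest an _s_at or _x_at probe set. Slc7a11 on knockdown counted as the same while going from 0.05 to 0.47 when its probe sets were averaged. Of 70 list medians 69 were the same, the exception being the ATF4 list on knockdown with the mean of both controls (0.084). Of 160 list counts, 34 moved. Cth on knockdown lay between 2.55 and 2.63 under the 3 normalizations and at 2.56 with the mean of both controls, but at 1.79 with a pseudocount of 16. The brighter Slc7a11 probe set moved, when set against both controls, to -0.64 on knockdown and to 0.38 on overexpression. The cause was not tested, apart from changes that follow from a threshold, a filter or the choice of control.

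Of the member probe sets, 1 was higher in kdLNC above the 70th percentile (Slc7a11, since that filter removed Cth) and 1 at 2-fold and 3-fold (Cth), 2 were lower in kdLNC with the mean of both controls (those of Gsr and Slc7a11), and 0 were lower at 2-fold and 3-fold. In oeLNC, 2 were lower after median centring, quantile normalization or loess (Cth joining Slc7a11), and 0 with the mean of both controls or at 2-fold or 3-fold. In oeNC against kdNC, 1 was higher at 2-fold and 0 at 3-fold, and 1 was lower with the pseudocount or above the 70th percentile and 0 at 2-fold and 3-fold. Of all probe sets, 1184 were higher and 892 lower in kdLNC with the mean of both controls, 393 higher and 169 lower with the pseudocount, and 550 lower with no filter. In oeLNC, 379 were higher after median centring, 256 with the mean of both controls, 187 with the pseudocount, 1704 with no filter and 254 above the 70th percentile, and 722 were lower with the pseudocount and 792 above the 70th percentile, where 603 were higher and 1337 lower as deposited. As deposited, 607 were higher and 320 lower in kdLNC. No signal over background is known, which limits the dim probe sets of Cth and Cbs most.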
